A study of Rattus norvegicus with 24 samples.

Results

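The genes described here encode a calcium-calmodulin signalling module of forebrain neurons, and they were taken as the 10 reference genes named Camk2a, Camk2b, Camk2d, Camk2g, Camkk2, Camk4, Ppp3ca, Ppp3cb, Ppp3r1 and Nrgn, of 32883 reference genes in all. RNA of the frontal cortex came from adult male Sprague-Dawley rats in an inhalation study of tungsten particle aerosol, and samples were collected 24 hours after exposure. The 8 Control rats were at 0 mg/m3, the 8 Low rats at 5 mg/m3 and the 8 High rats at 80 mg/m3, with 1 library a rat, numbered 49 to 72 in the order of these groups. Sample titles carry the word Repeat, and neither its meaning nor the length of exposure is stated in the sources at hand. Coverage is the mean read depth over the bases of a gene. For each library it was divided by its sum over the reference genes and multiplied by 1000000, and this scaled coverage is the level given below.

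Calmodulin is the calcium sensor on which these proteins converge. When calcium enters a spine, calmodulin activates CaMKII, a holoenzyme built from alpha (Camk2a), beta (Camk2b), delta (Camk2d) and gamma (Camk2g) subunits that is abundant at excitatory synapses. Neurogranin (Nrgn) is a small protein of dendrites that binds calmodulin when calcium is low. Calcineurin is the opposing phosphatase, with catalytic A subunits (Ppp3ca, Ppp3cb) and a calcium-binding B subunit (Ppp3r1). CaM kinase kinase 2 (Camkk2) phosphorylates CaMKIV (Camk4), a largely nuclear kinase that phosphorylates the transcription factor CREB. CREB binds the cyclic AMP response element, whose core letters are TGACG.

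Because CREB lies downstream of Camk4, the promoters were searched for this core on both strands, as TGACG or its complement CGTCA. RefSeq promoters (assembly GRCr8, from 250 bases before to 50 bases after the start site) matched 9 of the genes by symbol. Shown are Camk2a, whose promoter holds 2 copies, Ppp3r1, which holds 1, and Camk4 and Nrgn, which hold 0, so that genes with and without it can be read side by side. Capitals mark the cores.
Camk2a, chr18:56648930-56649229, + strand: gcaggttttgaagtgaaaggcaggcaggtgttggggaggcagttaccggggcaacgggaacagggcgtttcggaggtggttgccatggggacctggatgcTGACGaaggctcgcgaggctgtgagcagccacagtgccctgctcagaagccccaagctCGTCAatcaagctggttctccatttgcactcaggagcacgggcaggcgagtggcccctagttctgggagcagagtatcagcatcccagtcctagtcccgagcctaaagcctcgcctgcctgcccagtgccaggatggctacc
Ppp3r1, chr14:95769596-95769895, + strand: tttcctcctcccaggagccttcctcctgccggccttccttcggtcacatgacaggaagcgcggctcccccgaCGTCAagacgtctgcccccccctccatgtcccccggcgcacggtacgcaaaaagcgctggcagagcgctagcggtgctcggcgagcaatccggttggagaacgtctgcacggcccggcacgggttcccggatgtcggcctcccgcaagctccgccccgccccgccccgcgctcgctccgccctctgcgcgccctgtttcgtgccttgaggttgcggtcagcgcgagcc
Camk4, chr18:24856902-24857201, + strand: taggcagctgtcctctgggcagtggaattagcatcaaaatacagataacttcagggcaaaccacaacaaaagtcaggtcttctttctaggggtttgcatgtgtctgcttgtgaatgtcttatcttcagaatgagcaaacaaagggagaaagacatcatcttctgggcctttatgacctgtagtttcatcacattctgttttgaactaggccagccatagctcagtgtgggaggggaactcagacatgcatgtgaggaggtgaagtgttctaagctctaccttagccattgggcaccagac
Nrgn, chr8:45452368-45452667, - strand: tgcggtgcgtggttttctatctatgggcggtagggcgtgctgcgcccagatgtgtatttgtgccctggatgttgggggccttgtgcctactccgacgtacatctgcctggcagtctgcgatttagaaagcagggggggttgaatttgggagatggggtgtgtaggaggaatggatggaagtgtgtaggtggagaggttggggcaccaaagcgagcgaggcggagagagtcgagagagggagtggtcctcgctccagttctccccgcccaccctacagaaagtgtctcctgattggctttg
In Camk2a the copies begin 150 and 92 bases before the start site, and in Ppp3r1 the copy begins 178 bases before it. Ppp3cb held 1 copy, 95 bases before its start site. In all, 3 of 9 promoters (33.3%) held the core, against 21.2% of the 33469 promoters of this length, and 4.96% of all held 2 or more. These are matches of letters and not measured binding.

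Coverage summed over the reference genes was 1.64e+06 to 3.07e+06 a library. The tables hold depths and no counts of reads, and the counting error of a level is therefore unknown. The 8 Control and 8 High tables also list loci that StringTie, the transcript assembler, built from the reads of each rat. Control library 56 lists 159573 of them, and the other Control and High tables list 46334 to 66427. The 8 Low tables list 0. Low therefore differs from both other groups in the kind of table as well as in exposure, and these cannot be told apart. The label of frontal cortex was checked against marker genes. All 7 genes of the list for cortical excitatory neurons were present in every library, with a summed scaled coverage of 523 to 1448. The list includes Rbfox3 and Snap25, which are general neuronal genes. Slc17a7 made the largest part of the sum, with a Control median of 718 against 1160 for the sum. Striatum markers (7 of 7 found) summed to 65.1 to 456. Of the endothelial markers, Cldn5 was at 0 in all 8 Low libraries and at most 0.128 in the others, while Flt1 and Tek were at 7.10 or more in every library. In High libraries 65, 66 and 67 the striatum markers summed to 456, 310 and 369, against 66.8 to 152 in the other 5 High libraries. The excitatory markers of those 3 libraries summed to 1044, 799 and 523, and the other 5 reached 1205 or more. Control libraries 55 and 56 had striatum sums of 327 and 265, against 127 to 210 in the other Control libraries, and excitatory sums of 1026 and 1033. In tissue of mixed cells, fewer cells of a type and less RNA per cell cannot be told apart.

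**Figure D1:**
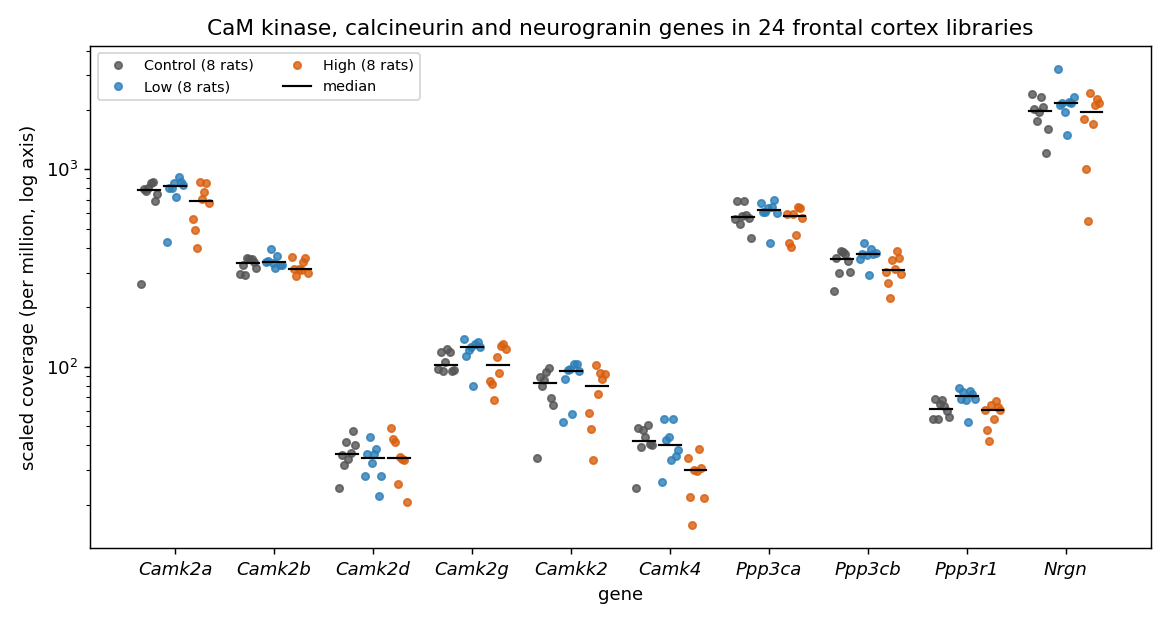
Scaled coverage (per 1000000, log axis) of the 10 genes, 1 point a library, coloured by group, with black bars at the group medians (8 rats each). Nrgn lies highest (Control median 1980) and Camk4 (42.2) and Camk2d (36.1) lowest, and the groups overlap for every gene.

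Nrgn was by far the most abundant of the 10, with a median scaled coverage of 1980 in Control, and ranked 38 of the 15644 genes tested by mean level over all rats. Camk2a followed at 785 (rank 112). The catalytic calcineurin gene Ppp3ca was next at 573 (rank 149), then Ppp3cb at 351 (rank 300) and Camk2b at 335 (rank 306). The remaining genes were lower, with 102 for Camk2g, 82.7 for Camkk2, 61.5 for Ppp3r1, 42.2 for Camk4 and 36.1 for Camk2d. The order was largely the same within each rat. Nrgn exceeded Camk2a, Ppp3ca exceeded Ppp3cb and Camk2b exceeded Camk2g in 24 of 24 rats, and Camk2a exceeded Ppp3ca in 20 of 24. Neighbours that did not separate were Ppp3cb and Camk2b (Ppp3cb higher in 17 of 24 rats) and Camk4 and Camk2d (Camk4 higher in 13 of 24). The place of Ppp3r1 depends on the column. Its Control median was 150.0 FPKM (fragments per kilobase of transcript, scaled for library size), between Ppp3ca at 195 and Camk2b at 146. Its ratio of FPKM to coverage was 7.02 to 7.24 times that of Nrgn.

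The alpha subunit gene Camk2a ranged in scaled coverage from 263 through a median of 785 to 867 in Control. In Low it ranged from 427 through 819 to 919, and in High from 400 through 693 to 866. Most libraries lay close together, and the low ends were Control library 49, Low library 57 and High libraries 67 (400), 66 (496) and 65 (560). The beta subunit gene Camk2b was the most even of the 10, from 293 to 357 among Control, 317 to 393 among Low and 288 to 360 among High libraries, with a coefficient of variation of 7.08% to 8.08% within groups. Camk2g ranged from 95.2 through 102 to 123 in Control, from 79.8 through 126 to 139 in Low and from 67.5 through 103 to 130 in High. Library 61, at 79.8, was the only Low library below the Control median. Camk2d ranged from 24.4 through 36.1 to 47.0 in Control, from 22.1 through 34.4 to 44.0 in Low and from 20.6 through 34.6 to 48.8 in High.

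Of the kinases upstream and in the nucleus, Camkk2 ranged from 34.5 through 82.7 to 98.8 in Control, from 52.6 through 95.7 to 104 in Low and from 33.6 through 79.7 to 102 in High. Its 4 lowest libraries, 67, 49, 66 and 57, were also the 4 lowest in Camk2a. Camk4 ranged from 24.2 through 42.2 to 50.8 in Control, from 26.0 through 40.3 to 54.2 in Low and from 15.7 through 29.9 to 38.1 in High. Apart from library 49 at 24.2, every Control value (39.1 or more) lay above every High value. Low overlapped both groups, and High libraries 66, 67 and 72 (21.8, 15.7 and 21.7) lay below every Low value.

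Of the calcineurin genes, Ppp3ca ranged from 450 through 573 to 693 in Control, from 426 through 623 to 702 in Low and from 406 through 582 to 646 in High. Ppp3cb ranged from 241 through 351 to 384, from 290 through 372 to 422 and from 224 through 308 to 387 in the same order. The B subunit gene Ppp3r1 ranged from 54.4 through 61.5 to 69.1 in Control, from 52.8 through 70.9 to 78.4 in Low and from 42.2 through 60.1 to 67.5 in High. For Ppp3r1, 7 of the 8 Low values were 68.0 or more, a level that 2 Control libraries and 0 High libraries reached. Nrgn ranged from 1210 through 1980 to 2422 in Control, from 1495 through 2165 to 3233 in Low and from 545 through 1959 to 2431 in High.

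Between Low and Control, 0 of the 10 genes passed the threshold (limma across all genes, adjusted p under 0.05), where 6.11% of all genes tested did. Exact Wilcoxon rank-sum tests also called 0, where they called 2.38% of all genes. At an unadjusted p under 0.05 limma gave 1 of the 10, Ppp3r1, and 18.4% of all genes. The Wilcoxon test gave 2 of the 10, Camk2g and Ppp3r1, and 2726 of all 15644 genes, so neither count stands out from all genes. The median log2 difference of the 10 was 0.14 against 0.06 over all genes, with 8 higher in Low and 2 lower. Ppp3r1 was 69.9 ± 7.81 (SD, n = 8) in Low and 61.2 ± 6.01 (n = 8) in Control, a log2 difference of 0.19 (SE 0.09, limma adjusted p = 0.269). Camk2g differed by 0.18 (SE 0.12, adjusted p = 0.475), Nrgn by 0.20 (SE 0.24) and Camkk2 by 0.19 (SE 0.22). The lower values were those of Camk2d, at -0.14 (SE 0.16), and Camk4, at -0.04 (SE 0.17), and both signs turned on rescaled FPKM (0.21 and 0.12).

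Between High and Control, 0 of the 10 genes passed with limma, as did 0% of all genes. Exact Wilcoxon rank-sum tests called 0 as well, and each test gave 1 of the 10 at an unadjusted p under 0.05, Camk4. Of all genes, 2.11% (330) had an unadjusted p under 0.05 in limma and 887 in the Wilcoxon tests. Camk4 was 27.8 ± 7.45 (SD, n = 8) in High and 41.9 ± 8.44 (n = 8) in Control, a log2 difference of -0.59 (SE 0.17, limma unadjusted p = 0.00215, adjusted p = 0.999). The Wilcoxon test gave p = 0.00295 (exact, adjusted p = 0.873). All 10 genes had lower values in High, with a median log2 difference of -0.10 against -0.03 over all genes. This common direction moves with 3 libraries. Without High libraries 65, 66 and 67, whose striatum markers were high, the median of the 10 was 0.02 (all genes -0.04), and 7 of them had higher values in High. Camk2a then differed by 0.16, Nrgn by 0.17 and Camkk2 by 0.26, while Camk4 stayed at -0.46, Camk2d at -0.29 and Camk2b at -0.03. With limma, 0 of the 10 passed there, as did 0% of all genes. These 3 libraries also held the lowest Camk2a values of High. Libraries 66 and 67 were the lowest of High in Camk2g, Camkk2, Ppp3ca, Ppp3cb, Ppp3r1 and Nrgn as well, and all 3 were the highest in Camk2d. Leaving them out therefore raises the High levels of the former genes and lowers that of Camk2d by construction. Control libraries 55 and 56, whose striatum markers summed to 327 and 265, stayed in, so only High was trimmed. Without Control library 49 and Low library 57, Camk4 differed by -0.70 on the log2 scale and passed (limma adjusted p = 0.0142), where 2.49% of all genes did. Library 49 holds the lowest Control value of Camk4 itself (24.2, others 39.1 or more). Leaving it out therefore widens this difference by construction. Leaving out each library in turn kept Camk4 between -0.70 and -0.49 and called 0 of the 10 and 0% of all genes. Without library 49 alone the limma adjusted p of Camk4 was 0.373. In every setting run the Camk4 difference was negative, from -0.70 to -0.42.

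The direct comparison of both doses, Low against High, called 2 of the 10 genes higher in Low and 0 lower (limma), where 11.7% of all genes were called. Camk4, 41.0 ± 9.86 in Low and 27.8 ± 7.45 in High (SD, n = 8 each), was higher by 0.56 (SE 0.17, limma adjusted p = 0.0375). Ppp3r1, 69.9 ± 7.81 in Low and 57.4 ± 8.56 in High, was higher by 0.29 (SE 0.09, adjusted p = 0.0389). Exact Wilcoxon tests called 0 of the 10, where they called 7.33% of all genes, with adjusted p = 0.0825 for Camk4 and 0.0514 for Ppp3r1. At an unadjusted p under 0.05 they gave 3 of the 10, these and Ppp3cb, and 5213 of all 15644 genes, a like share. In limma, Ppp3cb followed at 0.25 (SE 0.11, adjusted p = 0.111), then Camk2g at 0.25 (SE 0.12, adjusted p = 0.177) and Nrgn at 0.44 (SE 0.24, adjusted p = 0.222). The median of the 10 was 0.25 against 0.09 over all genes, with Camk2d, at -0.07, the 1 lower in Low. Neither call held in all of the fits that leave out 1 library, where 8.08% to 17.1% of all genes passed. The differences themselves stayed between 0.45 and 0.64 for Camk4 and between 0.23 and 0.34 for Ppp3r1. Camk4 no longer passed in 7 of the 24 fits that leave out 1 library each (Low 58, 59, 60 and 62, High 66, 67 and 72), where its limma adjusted p reached 0.0875. Ppp3r1 no longer passed in 10 (Low 57, 58, 59, 60, 62, 63 and 64, High 66, 67 and 69), where it reached 0.0855. Without Low library 61, which holds the lowest Low value of Camk2g, that gene passed as well (limma adjusted p = 0.0468), where 15.8% of all genes did. Without High libraries 65, 66 and 67, 0 of the 10 passed (5.96% of all genes did), with Camk4 at 0.42 (adjusted p = 0.158) and Ppp3r1 at 0.17 (adjusted p = 0.224). That fit drops the lowest High values of Ppp3r1 (libraries 67 and 66) and of Camk4 (library 67), so smaller differences follow in part by construction.

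**Figure D2:**
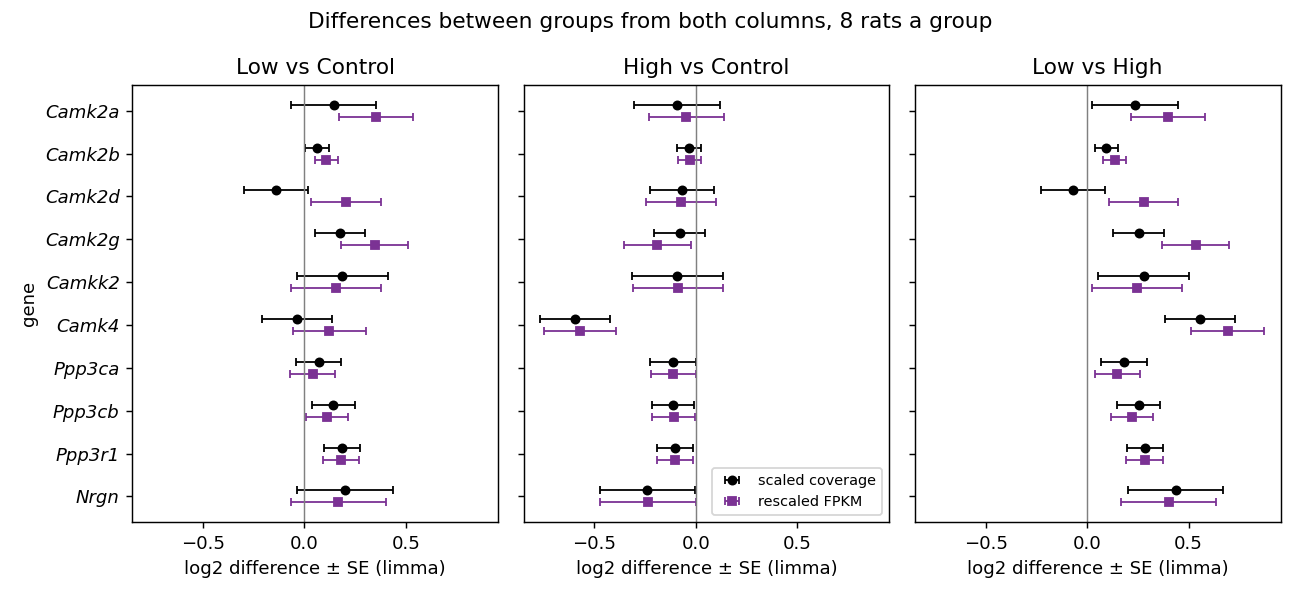
Log2 differences with SE (limma, 8 rats a group) of the 10 genes in the 3 comparisons, from scaled coverage (black circles) and from FPKM rescaled to its sum over the reference genes (purple squares). Camk4 lies at -0.59 in High vs Control and at 0.56 in Low vs High on coverage, and Camk2d changes side between the columns in both comparisons with Low.

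The deposited columns disagree on several of these genes, and for some of them the disagreement moves with the kind of table. The ratio of FPKM to coverage, set to 1 for Nrgn, was 1 in all 24 tables for Camkk2, Ppp3ca, Ppp3cb and Nrgn, as for 76.7% to 80.6% of genes in a table (tolerance 0.005). For Camk2d it was 2.50 to 2.60 in Low, but 1.69 to 2.18 in Control and 1.80 to 2.11 in High. For Camk2a it was 1.59 in each Low table, against 1.24 to 1.66 in Control and 1.27 to 1.88 in High. For Camk4 it was 1.15 to 1.19 in Low, 1 to 1.10 in Control and 1 to 1.23 in High, and for Camk2b 1.35 to 1.36 in Low, 1.27 to 1.29 in Control and 1.25 to 1.31 in High. For Camk2g the median ratio was 1.649 in Low, 1.398 in Control and 1.385 in High, and the Low range overlapped both others. For Ppp3r1 the ratio was 7.221 to 7.244 in Low, 7.016 to 7.203 in Control and 7.029 to 7.139 in High. The Low tables of Camk2b, Camk2d and Ppp3r1 thus overlapped neither other group in this ratio. The share of all genes for which this holds was not computed, so it is not shown to be particular to these genes. After FPKM was rescaled to its sum over the reference genes, Camk2d was 0.21 higher in Low than in Control (limma adjusted p = 0.545) rather than lower, and Camk4 was 0.12 higher (adjusted p = 0.757). On that scale the calls between Low and High were Camk4 at 0.69 (adjusted p = 0.00737), Ppp3r1 at 0.28 (adjusted p = 0.0300) and also Camk2g at 0.54 (adjusted p = 0.0254), where 16.8% of all genes passed. Between Low and Control, 0 of the 10 passed on it, where 11.8% of all genes did. The genes with an equal ratio in every table, Camkk2, Ppp3ca, Ppp3cb and Nrgn, passed in no comparison on either scale.

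**Figure D3:**
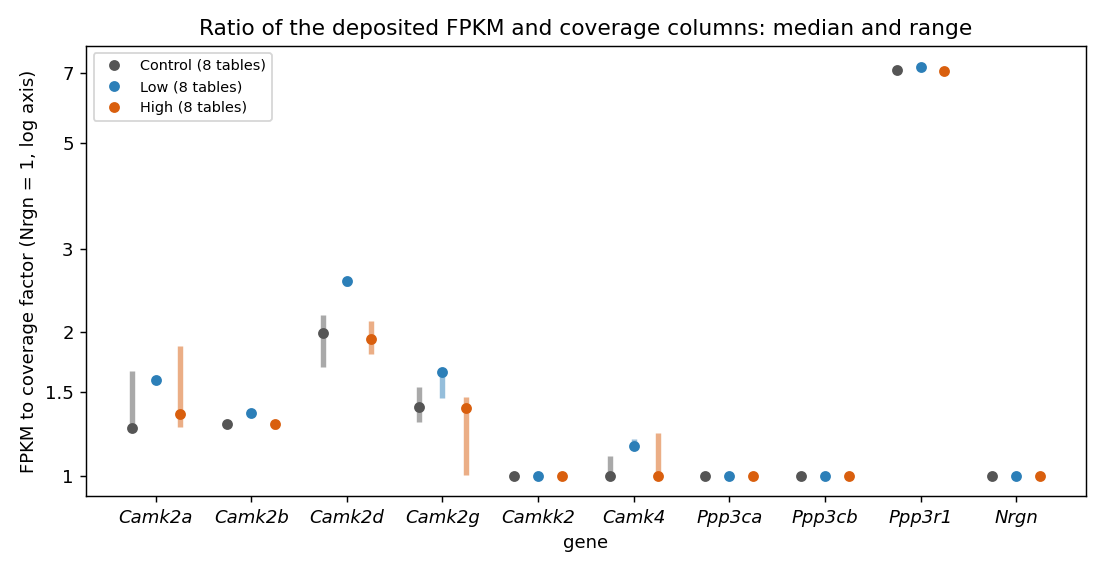
Ratio of the FPKM and coverage columns of each gene, divided by that of Nrgn (log axis), with the median as a point and the range as a bar over 8 tables a group. Low (blue) lies above the Control and High medians for Camk2a, Camk2b, Camk2d, Camk2g, Camk4 and Ppp3r1, and all groups lie at 1 for Camkk2, Ppp3ca, Ppp3cb and Nrgn.

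Positions are given as in the tables. The submitters' notes name the build mRatBN7.2, yet the last reference gene on chromosome 1 ends at 282724300 in the tables, so the build of these coordinates was left unstated. Ppp3r1 (ENSRNOG00000043210, chromosome 14, 100311173 to 100360879, + strand) overlaps AABR07016428.1 (100342054 to 100393202) on the same strand. The latter had a scaled coverage of 93.0 to 182 in Control and 105 to 180 in High, above Ppp3r1 itself, but 0 to 0.135 in Low. The part of this difference between tables in the higher Ppp3r1 of Low was not tested. Assembled loci over Ppp3r1 carried 6.70 to 6.74 times its own coverage in Control. Camk2a (ENSRNOG00000018712, chromosome 18, 56193978 to 56295869, + strand) encloses AABR07032237.1 (56227036 to 56227103), listed at 0.444 to 1.51 in libraries 56 to 62 and at 13.0 to 43.8 in all others, Low libraries 63 and 64 included. Control library 56 and Low libraries 57 to 62 thus form a split that lies largely with Low, and it was entered as a covariate in an alternative fit. Camk4 (ENSRNOG00000020478, chromosome 18, 25749098 to 25965957, + strand) encloses a U6 gene with at most 9.81. The other members overlap no listed gene. They are Camk2b (ENSRNOG00000052080, chromosome 14, 86208901 to 86297652, - strand), Camk2d (ENSRNOG00000011589, chromosome 2, 230901126 to 231132039, + strand) and Camk2g (ENSRNOG00000009783, chromosome 15, 3936786 to 3995915, + strand). Camkk2 (ENSRNOG00000001309) lies on chromosome 12 from 39253409 to 39302601 on the + strand. Ppp3ca (ENSRNOG00000009882) lies on chromosome 2 from 241909832 to 242184854 and Ppp3cb (ENSRNOG00000054782) on chromosome 15 from 4209703 to 4236895, both on the + strand. Nrgn (ENSRNOG00000010688, chromosome 8, 40015049 to 40023193, - strand) is the last of them, and the locus assembled over it had an equal coverage (tolerance 0.001) in 8 of 8 Control and 7 of 8 High tables.

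Ratios within a library do not depend on its scaling. Nrgn to Camk2a had medians of 2.41 (Control), 2.58 (Low) and 2.70 (High). The ratio was 9.19 in Control library 49 and 7.56 in Low library 57, and 1.36 to 3.22 in the other 22 libraries. In library 49 Camk2a was at 263 and Nrgn at 2422, and in library 57 Camk2a was at 427 and Nrgn at 3233, the highest Nrgn of all libraries. In both, Camkk2 (34.5 and 52.6) and Camk4 (24.2 and 26.0) were low with Camk2a, while Camk2g (96.9 and 139) and Ppp3ca (562 and 675) were not the lowest of their groups. High library 67 was low in both genes, with Camk2a at 400 and Nrgn at 545, and had the lowest ratio, 1.36. Of 18 tests over 6 ratios and 3 comparisons, 0 passed an adjusted p of 0.05. The smallest p values were those of Ppp3r1 to Ppp3ca, whose mean log2 ratio was higher in Low than in Control by 0.12 (two-sided exact permutation p = 0.0389, adjusted p = 0.350) and higher in Low than in High by 0.11 (exact p = 0.0326, adjusted p = 0.350). Camk2d to Camk2a differed by -0.29 between Low and Control (exact p = 0.197, adjusted p = 0.995).

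**Figure D4:**
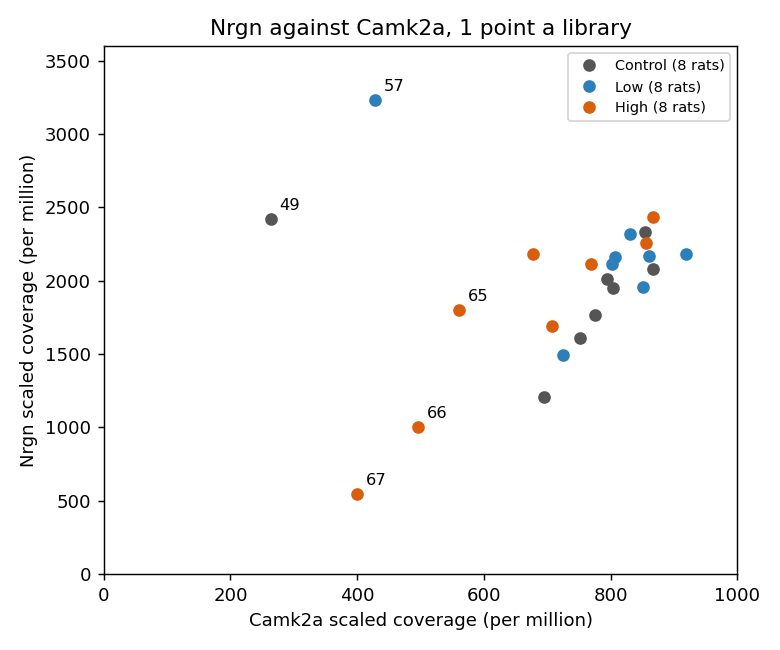
Scaled coverage (per 1000000) of Nrgn against Camk2a, 1 point a library, coloured by group, both axes from 0. Most libraries lie on 1 band, with Control library 49 (263, 2422) and Low library 57 (427, 3233) above it and High libraries 65, 66 and 67 toward its lower end.

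Across the 24 rats most of the genes varied together. On log2(scaled coverage + 1), 40 of 45 pairs had a positive Pearson's r, with a median of 0.620. After Benjamini-Hochberg adjustment over the pairs, 36 passed 0.05 with r (100000 permutations) and 32 with Spearman's rho. The points share libraries and the scaling sum. Pairs of other genes were not counted in the same way, so this common variation is not shown to be particular to these genes. Camk2a and Camkk2 had the highest r, 0.917 (permutation p = 1e-05, the smallest these permutations can give, rho = 0.889), and 0.860 without libraries 49 and 67. Camk2g and Ppp3r1 had r = 0.901 (rho = 0.830), and Ppp3ca and Ppp3r1, the A and B subunits of calcineurin, had r = 0.889 (rho = 0.888). Camk2g and Nrgn had r = 0.821 (rho = 0.757), whereas Camk2a and Nrgn had r = 0.285 (permutation p = 0.150, adjusted p = 0.169). Camk2a and Camk2b, subunits of 1 holoenzyme, had r = 0.461, which was 0.175 without libraries 49 and 67. All 5 negative pairs held Camk2d, with r = -0.514 to Nrgn (rho = -0.653, adjusted p = 0.0174 for r), -0.467 to Camk2g (adjusted p = 0.0304), -0.324 to Ppp3ca, -0.233 to Ppp3r1 and -0.188 to Camkk2. Camk2d was positive with the other 4 genes, with r = 0.423 to Camk2b (adjusted p = 0.0498), 0.269 to Camk4, 0.0608 to Camk2a and 0.0238 to Ppp3cb. Within groups, with the group means taken off, r was 0.912 for Camk2a and Camkk2 and -0.527 for Camk2d and Nrgn.

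**Figure D5:**
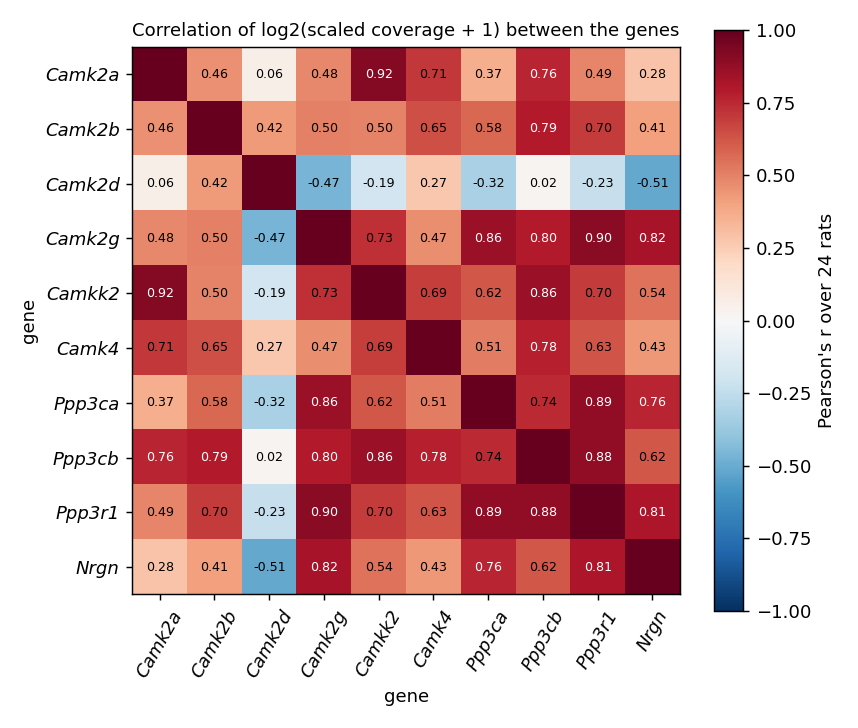
Pearson's r of log2(scaled coverage + 1) over the 24 rats for each pair of the 10 genes, red for positive and blue for negative. The strongest cell is Camk2a with Camkk2 (0.917), and Camk2d with Nrgn (-0.514) is the most negative.

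The genes most like each main member were sought among 8697 genes with a symbol and a mean scaled coverage of at least 10, by Pearson's r over the 24 rats. For Camk2a these included Rims1 (r = 0.975), a scaffold of the presynaptic active zone, and Cux2 (0.969), a transcription factor of upper cortical layers. For Nrgn they were Ephx4 (0.978), Nrn1 (0.973), which encodes neuritin, and Slc30a3 (0.970), the zinc transporter of synaptic vesicles. For Ppp3ca they were Nefl (0.945), the light neurofilament chain, Zfp385b (0.924) and Tigar (0.917).

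The wider pathway was given by lists of 33 other genes, of which 32 were found by name (Calm3 was not) and 32 entries were tested, since Calm2 has 2 entries and Ppp3r2, a calcineurin B gene of testis, lay under the filter. Between Low and Control 1 of 32 (3.13%) passed, lower in Low (limma), where 6.11% of all genes did. Between High and Control 0 passed, as did 0% of all genes. There 0 also had an unadjusted p under 0.05, against 2.11% of all genes. Between Low and High 4 (12.5%) passed, 3 higher and 1 lower in Low, close to the 11.7% of all genes. The median log2 differences were 0.02, -0.04 and 0.07, against 0.06, -0.03 and 0.09 over all genes.

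The entry of the calmodulin gene Calm2 with the higher level was at 1526 ± 151 in Control, 1691 ± 249 in Low and 1453 ± 153 in High (SD, n = 8 each). Whether the 2 entries of this name share reads was not tested, so the split between them is uncertain. Camk2n1, an endogenous inhibitor of CaMKII, was more abundant than Nrgn, at 2918 ± 481, 2771 ± 471 and 2773 ± 737 in the same order. Its relative Camk2n2 was at 106, 85.0 and 103, with a log2 difference of -0.31 between Low and Control (SE 0.13, limma adjusted p = 0.195). Gap43, which like neurogranin binds calmodulin at low calcium, was at 445, 483 and 445, and Pcp4 at 402, 379 and 407. Camkv, a pseudokinase, was at 210, 227 and 212, and Camkk1 had medians of 95.3, 124 and 103.

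Among calcineurin partners and targets, Chp1, a calcineurin B-like protein, was at 125, 141 and 121 in Control, Low and High and was higher in Low than in High by 0.22 (SE 0.07, limma adjusted p = 0.0424). Rcan2, a calcineurin inhibitor, was at 128, 131 and 118. The catalytic gene Ppp3cc was low, at 19.4, 22.3 and 18.8. Nfat5, of the family of calcineurin-regulated factors though itself known for the response to osmotic stress, was at 21.8, 24.7 and 18.5 and was higher in Low than in High by 0.38 (SE 0.12, adjusted p = 0.0446). Nfatc3 was at 5.12, 5.10 and 4.71. Crebbp, a coactivator of CREB, was at 20.0, 23.6 and 18.3 and was higher in Low than in High by 0.33 (SE 0.10, adjusted p = 0.0378). The CREB coactivators Crtc1 (70.2, 76.1 and 66.0) and Crtc2 (27.3, 26.3 and 27.2) did not pass in any comparison. On rescaled FPKM, Crebbp and Nfat5 passed between Low and High at 0.30 and 0.37 (adjusted p = 0.0469 and 0.0397), and Chp1 did not at 0.18 (adjusted p = 0.0670).

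Crem, a CREB relative, gave the lowest p of the pathway genes, in opposite directions by column. Its scaled coverage was 1.18 to 1.86 among Control, 0.418 to 0.689 among Low and 1.17 to 1.61 among High libraries, so that Low overlapped neither group. How many of all genes separate in this way was not counted. The mean of Crem over the 24 libraries was 1.15, just past the filter of 1, and every Low value lay under 1. It was therefore tested only through its Control and High levels, and all its values lie near the floor. The log2 difference was -0.69 between Low and Control (SE 0.08, limma adjusted p = 5.65e-07) and -0.60 between Low and High (adjusted p = 5.71e-06). Its ratio of FPKM to coverage was 11.0 to 16.9 in Low, against 1.30 to 4.38 in Control and 1.43 to 2.91 in High. On rescaled FPKM the direction turned, with Crem higher in Low than in Control by 0.92 (adjusted p = 0.000152) and higher than in High by 0.98 (adjusted p = 5.45e-05).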

How the data were processed

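Frontal cortex RNA of 24 rats was sequenced from stranded mRNA libraries. Per the labels, the authors used FastQC, Trimmomatic, TopHat2 and StringTie. Their versions are not stated in the sources at hand. Each deposited table gives coverage (a depth signal) per gene, not scaled for library size, with FPKM and TPM. In Low tables the deposited TPM sums to 1000000 over reference genes, whereas in Control and High tables the authors' TPM column is a score, since assembled loci alone sum to 1000000 there.

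Coverage was summed per Ensembl identifier over reference genes and scaled to 1000000. Genes with a mean of at least 1 were tested on log2(value + 1), a scale that understates changes of low genes, with limma 3.58.1 (trend, robust) in R 4.3.3, 3 groups in 1 fit, two-sided, Benjamini-Hochberg adjusted. Exact Wilcoxon and permutation tests used Python 3.11.15. The limma fit, the exact Wilcoxon and permutation tests between groups and the Benjamini-Hochberg adjustment were tested on simulated data, and the other steps were not. Each library is 1 rat. Assembled loci entered no test. The named pathway genes are those past the threshold and the 2 most abundant per list, and the 3 genes most like Camk2a, Ppp3ca and Nrgn each were named by r. Genes that fall under these rules but are withheld are not reported here. The genes and lists were chosen with earlier results of these data known. The alternatives were another pseudocount, filter, scaling, column, test, covariate or set of libraries. Rescaled FPKM and the fits without High libraries 65, 66 and 67 were added after the data were seen.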

Additional observations from a re-analysis of the deposited data

Results flagged for a closer look

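In 13 of 48 sets of 8 libraries (a gene's scaled coverage or a log2 ratio within a group), 1 library lay apart from the rest by Dixon's criterion, where chance gives 2.40. The sets are not independent, since several share a library. The log2 ratios to Camk2a also share its values, so the low Camk2a of libraries 49 and 57 counts again through them. Control library 49 was lowest in Control in Camk2a (263, others 695 to 867) and Camk4 (24.2, others 39.1 to 50.8). Its log2 ratios to Camk2a were the highest in Control, at 0.17 for Camk2b, -1.44 for Camk2g and 3.20 for Nrgn, against -1.40 to -1.03, -3.03 to -2.74 and 0.80 to 1.45 in the others. Low library 57 was lowest in Low in Camk2a (427, others 725 to 919) and highest in Nrgn (3233, others 1495 to 2318). Its log2 ratios to Camk2a were -0.32 for Camk2b, -1.62 for Camk2g and 2.92 for Nrgn, against -1.39 to -1.04, -3.18 to -2.69 and 1.04 to 1.48 in the other Low libraries. Low library 61 was lowest in Low in Camk2g (79.8, others 113 to 139), Ppp3ca (426, others 599 to 702) and Ppp3r1 (52.8, others 68.0 to 78.4). Its excitatory markers summed to 830, the lowest sum in Low, and 33.8% of its coverage lay on mitochondrial genes, the highest share of the 24 libraries. The part of these values in the Low levels was not tested.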

How the results depend on the processing

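No paired analysis was possible because the groups share no replicate numbers. Between Low and Control the count of 0 of the 10 genes past the threshold became 10 with deposited FPKM (89.7% of all genes) and 3 with deposited TPM (25.4%). Between High and Control it became 1, Camk4, without libraries 49 and 57 (2.49%), a fit that drops the lowest Control value of Camk4. Between Low and High the count of 2 (11.7% of all genes) became 0 with no filter (7.85%), with no scaling (7.21%), with median-of-ratios scaling (10.6%), with libraries 56 to 62 as a covariate (2.26%), without High libraries 65, 66 and 67 (5.96%) and with Wilcoxon tests (7.33%). It became 1 with only the groups compared (12.8%), 4 with TPM (25.2%), 4 without libraries 49 and 57 (28.8%) and 10 with FPKM (89.8%). Leaving out each library in turn gave 0 to 0 between Low and Control (4.32% to 7.83% of all genes) and 0 to 0 between High and Control (0%). It gave 0 to 3 between Low and High (8.08% to 17.1%).

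Signs turned as follows, each as a log2 difference, and the cause was not tested. Between Low and Control, Camk2d became 0.73 with FPKM, 0.33 with TPM and 0.21 with rescaled FPKM, and Camk4 0.64, 0.25 and 0.12. Between Low and High, Camk2d became 0.76, 0.36 and 0.28. With no scaling, where the median of all genes between High and Control was 0.14 and between Low and High -0.11, High vs Control became 0.0919 for Camk2a, 0.15 for Camk2b, 0.11 for Camk2d, 0.10 for Camk2g, 0.0892 for Camkk2, 0.0711 for Ppp3ca, 0.0717 for Ppp3cb and 0.0801 for Ppp3r1, and Low vs High became -0.12 for Camk2b and -0.0352 for Ppp3ca. In High vs Control, Camk2a became 0.000575 with FPKM and 0.000701 with TPM, and Camk2b 0.0159, 0.0160 and, with median-of-ratios scaling, 0.0036. That scaling gave Camk2b -0.00116 in Low vs High.

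Without High libraries 65, 66 and 67, chosen after the data were seen, High vs Control became 0.16 for Camk2a, 0.14 for Camk2g, 0.26 for Camkk2, 0.0033 for Ppp3ca, 0.0255 for Ppp3cb, 0.0138 for Ppp3r1 and 0.17 for Nrgn, and Low vs High became -0.0202 for Camk2a, 0.15 for Camk2d and -0.0759 for Camkk2. The log2 ratios to Camk2a in High vs Control became -0.19 for Camk2b, -0.46 for Camk2d, -0.0280 for Camk2g and 0.0073 for Nrgn, and in Low vs High 0.11 for Camk2b and 0.18 for Camk2d. With TPM the ratios to Camk2a became -0.0290 for Camk2d and -0.15 for Camk2g in High vs Control, and -0.0068 for Camk2g and -0.19 for Nrgn in Low vs Control. Without libraries 49 and 57 they became -0.13 for Camk2g and -0.0011 for Nrgn in Low vs High and 0.10 for Nrgn in High vs Control, while Ppp3cb to Ppp3ca became -0.0599 and Ppp3r1 to Ppp3ca -0.0073 in High vs Control. Spearman's rho of Camk2a and Camk2d was -0.15 where r was 0.0608.

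Leaving out 1 library at a time turned the sign of some small differences. In Low vs Control, Camk2a ranged from -0.0537 to 0.26 and Camk4 from -0.14 to 0.0480. In High vs Control, Camk2a ranged from -0.29 to 0.00716, Camk2d from -0.15 to 0.0323, Camk2g from -0.13 to 0.000803 and Camkk2 from -0.24 to 0.0540. In Low vs High, Camk2d ranged from -0.17 to 0.00651. The log2 ratios to Camk2a ranged, in Low vs Control, from -0.20 to 0.0941 for Camk2b, -0.12 to 0.21 for Camk2g and -0.15 to 0.30 for Nrgn. In High vs Control they ranged from -0.0187 to 0.23 for Camk2b, -0.12 to 0.14 for Camk2d, -0.0350 to 0.19 for Camk2g and -0.24 to 0.10 for Nrgn, and in Low vs High from -0.13 to 0.0949 for Camk2g and -0.0011 to 0.27 for Nrgn. Ppp3cb to Ppp3ca ranged from -0.0599 to 0.0322 and Ppp3r1 to Ppp3ca from -0.0105 to 0.0428 in High vs Control. Read counts are unknown, so no limit of detection was set.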
